A study of Mus musculus with 8 samples.

Results

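The 10 transcription factors described here are regulators of adipocyte formation and of fat and energy metabolism in fat tissue: *Pparg*, *Ppara*, *Ppard*, *Rxra*, *Cebpa*, *Cebpb*, *Cebpd*, *Esrra*, *Ebf1* and *Klf15*. They were chosen by name, as the PPAR, C/EBP and partner factors of adipocytes, and were matched by gene symbol among the 56953 genes of the count table. All 10 were found and all 10 passed the low-count filter that left 9876 genes for testing. RNA of brown adipose tissue (BAT) was sequenced from 8 C57BL/6J mice of wild-type genotype, 1 library per mouse, so that the spread between libraries includes the spread between animals. The 4 control (CTR) mice received PBS under the skin, and the 4 mice with cancer-associated cachexia (CAC) received 3000000 LLC cells, a mouse Lewis lung carcinoma line, in PBS at the same site. All mice were 8 to 10 weeks old at injection, were male or female (the labels do not give the sex of single mice) and were followed for up to 21 days, and only injected mice with a tumour entered the CAC group. The comparison of CAC with CTR asks how the tumour-bearing state changes the transcriptome of BAT.

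PPARs are nuclear receptors that respond to fatty acids and bind DNA together with RXR. PPARγ and C/EBPα sustain each other's expression in mature adipocytes, and C/EBPβ and C/EBPδ act before them when precursors begin to differentiate. In brown fat, PPARα and ERRα work with the coactivator PGC-1α on fatty acid oxidation and mitochondrial genes, EBF factors help to set adipocyte identity, and KLF15 responds to glucocorticoids and regulates amino acid and lipid use.

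The libraries held 1823167 to 4827956 counts each. *Ucp1*, the uncoupling protein that defines brown fat, ranged from 3770 to 4170 CPM (counts relative to the scaled library size) in the CTR mice and from 3560 to 4880 CPM in the CAC mice. *Adipoq*, an adipocyte hormone gene, ranged from 822 to 974 CPM and from 871 to 950 CPM, so the labelled tissue carried its markers in every library. Marker genes of other cell types were summed as a check. The summed level of 14 macrophage and monocyte markers was 216 to 242 CPM in CTR and 295 to 417 CPM in CAC, with 9 of 9 tested genes having a positive log2 fold change and 2 of them called higher, beside 0.739% of all genes tested. That of 14 neutrophil markers was 11.9 to 15 CPM in CTR and 174 to 445 CPM in CAC. Of the 4 neutrophil genes tested, 3 were called higher, beside the same share. These 3 averaged 1.01 to 3.54 CPM in CTR and 10.6 to 173 CPM in CAC, and passed the low-count filter through CAC. Their number can therefore not be read against that share. In CAC, *S100a8* and *S100a9* averaged 173 and 72.8 CPM, the largest parts of this sum. The paper proposes that most S100A9 secreted by cachectic BAT comes from brown adipocytes. Its evidence is at the protein level, with stronger staining in adipocytes, unchanged staining of other cell types and release by cultured brown adipocytes. It also reports no significant difference in the numbers of neutrophils and of all immune cells. The summed level of 13 skeletal muscle markers was 1270 to 3170 CPM in CTR and 2760 to 5160 CPM in CAC. That of 6 erythrocyte genes was 6120 to 19100 CPM in CTR and 14500 to 43900 CPM in CAC. Both of these sums overlapped, and 1 of 13 muscle genes and 1 of 6 erythrocyte genes were called, both higher. The called erythrocyte gene averaged 0.609 CPM in CTR and 8.31 CPM in CAC, and also passed the low-count filter through CAC. All 13 and all 6 had a positive log2 fold change, with medians of 0.97 and 1.56. An unadjusted p below 0.05 in edgeR was reached by 7 muscle and 5 erythrocyte genes, all higher, beside 7.01% of all genes. Summed brown adipocyte markers (12000 to 14400 CPM in CTR, 12100 to 15500 CPM in CAC) and general adipocyte markers (11100 to 12000 CPM in CTR, 10600 to 12400 CPM in CAC) overlapped. So did summed endothelial markers (1310 to 1340 CPM in CTR, 1110 to 1570 CPM in CAC) and progenitor and fibroblast markers (559 to 700 CPM in CTR, 517 to 758 CPM in CAC). Of 10 endothelial genes tested 2 were called, and of 10 progenitor genes 1, all higher, beside 0.739% of all genes. In each of these 2 lists 5 genes had a positive and 5 a negative log2 fold change. The part of these cell types in the levels of the 10 factors was not tested, and in whole tissue fewer cells of a type cannot be told apart from less RNA per cell.

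None of the 10 factors passed the test. In the quasi-likelihood test of edgeR, with p adjusted by Benjamini-Hochberg over all 9876 genes, 0 of 10 were called at an adjusted p below 0.05, beside 0.932% of all genes tested (92 genes, 73 higher and 19 lower in CAC). DESeq2 and limma-trend also called 0 of the 10. Without adjustment, 4 of the 10 had p below 0.05, with *Pparg* lower and *Ppara*, *Ppard* and *Cebpd* higher in CAC, while 12.9% of all genes reached that level (7.01% higher and 5.93% lower in CAC). CTR and CAC values overlapped for all 10 factors, and 7.05% of all genes tested had groups that did not overlap (3.65% higher and 3.4% lower in CAC). The log2 fold change was positive for 5 factors and negative for 5, with a median of -0.0475 beside 0 over all genes tested. The adjusted p of the factors ranged from 0.261 to 0.974 in edgeR. The plot of expression by mouse shows every value.

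**Figure D1:**
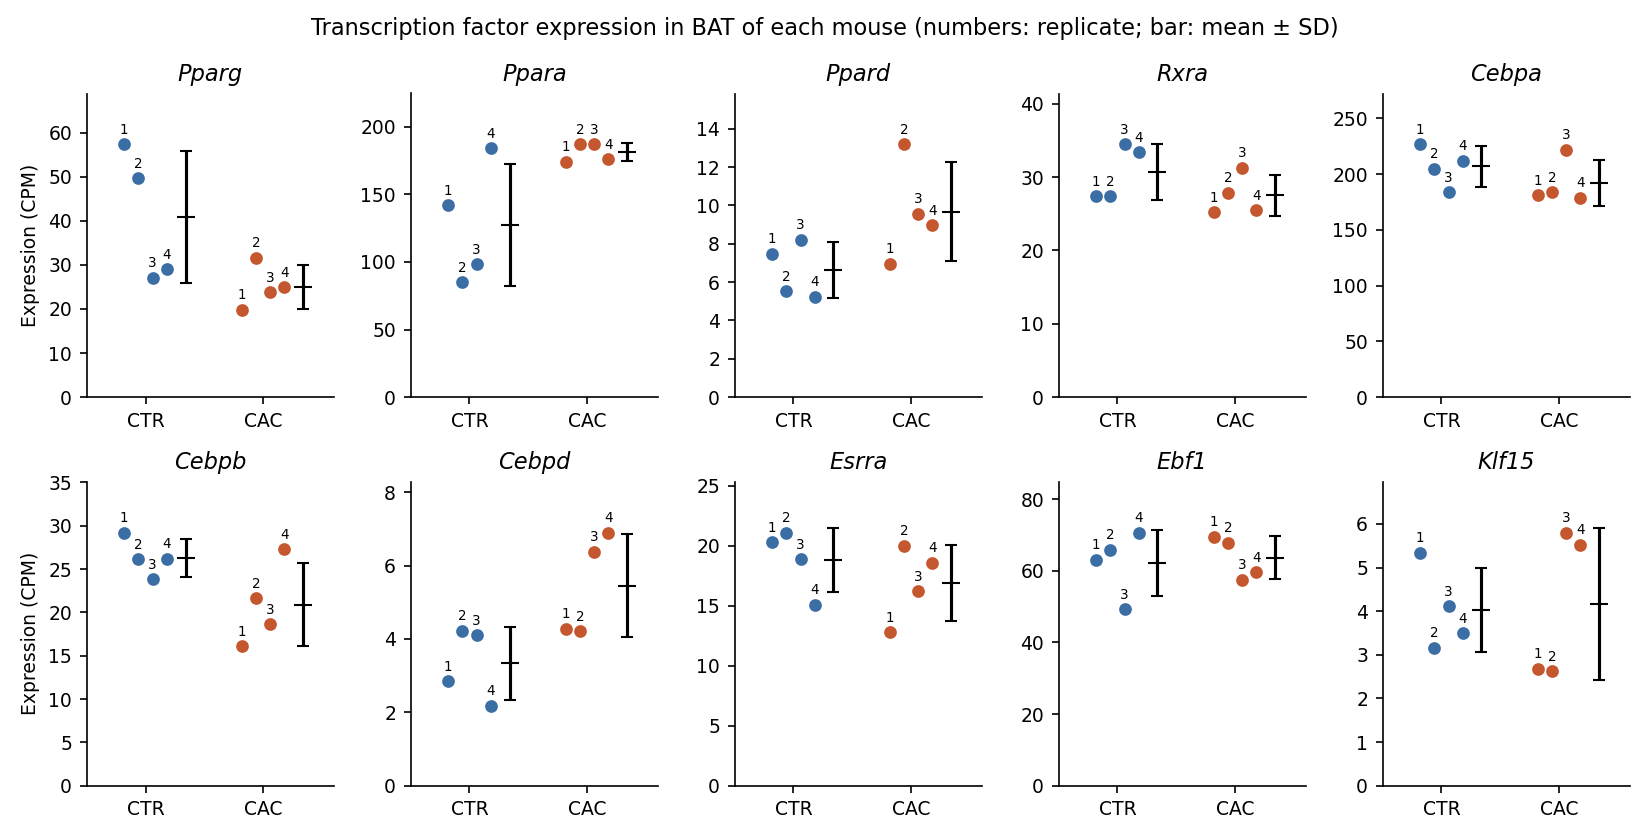
Expression of the 10 factors in BAT of each mouse, in CPM with a linear axis from 0 in each panel; points are single mice with their replicate number (blue CTR, orange CAC), and the bar is the mean with 1 SD (n = 4 per group). *Pparg* spread from 27.1 to 57.4 CPM in CTR and *Ppara* from 84.9 to 184 CPM, while the CAC mice lay between 19.8 and 31.6 CPM for *Pparg* and between 174 and 187 CPM for *Ppara*.

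The upstream sequences of *Pparg*, *Ppard*, *Cebpa* and *Cebpb* follow, because *Pparg* has distinct start sites that the gene-level counts do not separate and because the C/EBP factors bind a known short motif that can be looked for in them. They come from RefSeq promoter entries on GRCm38.p6, which were found for 9 of the 10 factors (13 windows), are written 5′ to 3′ on the plus strand, and end before any annotated exon. The first 2 windows belong to *Pparg*, at chr6:115362099-115362291 before an upstream start and at chr6:115421816-115422065 before the internal start of the transcript *Pparg*-201. The others are chr17:28232504-28232699 for *Ppard*, chr7:35119043-35119292 for *Cebpa* and chr2:167688665-167688914 for *Cebpb*. Capitals mark the GC box (GGGCGG, or CCGCCC on the other strand) except in the internal *Pparg* window, where they mark the C/EBP motif (TTGCNNAA or TTNNGCAA, N being any base), and in *Cebpa*, where they mark the TATA box (TATAAA).
Pparg, upstream start: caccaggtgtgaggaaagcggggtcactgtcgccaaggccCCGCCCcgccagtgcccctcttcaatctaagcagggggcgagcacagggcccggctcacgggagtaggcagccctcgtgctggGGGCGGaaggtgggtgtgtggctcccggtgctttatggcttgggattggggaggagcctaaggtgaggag
Pparg, internal start: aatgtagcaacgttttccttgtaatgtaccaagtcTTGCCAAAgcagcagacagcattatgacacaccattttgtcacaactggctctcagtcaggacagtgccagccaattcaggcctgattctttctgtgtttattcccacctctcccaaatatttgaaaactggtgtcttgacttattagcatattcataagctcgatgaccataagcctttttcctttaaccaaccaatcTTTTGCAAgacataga
Ppard: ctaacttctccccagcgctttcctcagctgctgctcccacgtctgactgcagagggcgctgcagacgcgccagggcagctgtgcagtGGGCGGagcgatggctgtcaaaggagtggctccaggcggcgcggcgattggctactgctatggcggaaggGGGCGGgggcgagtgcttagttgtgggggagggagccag
Cebpa: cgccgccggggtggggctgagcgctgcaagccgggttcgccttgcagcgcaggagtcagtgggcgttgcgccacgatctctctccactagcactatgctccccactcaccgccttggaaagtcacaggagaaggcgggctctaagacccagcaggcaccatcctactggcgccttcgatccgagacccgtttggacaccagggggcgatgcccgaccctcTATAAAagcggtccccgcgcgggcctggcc
Cebpb: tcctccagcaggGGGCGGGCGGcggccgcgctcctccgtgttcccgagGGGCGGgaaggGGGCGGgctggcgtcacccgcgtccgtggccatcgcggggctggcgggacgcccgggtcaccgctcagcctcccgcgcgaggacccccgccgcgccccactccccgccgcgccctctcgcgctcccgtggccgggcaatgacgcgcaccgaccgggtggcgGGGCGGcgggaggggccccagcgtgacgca

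The internal *Pparg* window held 2 C/EBP motifs, neither overlapping another motif searched, and its GC content was 40.8%. Both strands of 250 upstream bases were searched for all 32851 RefSeq promoters, and 9.56% held at least 1 C/EBP motif. The remaining 12 windows of the factors held none. GC boxes, present in 32.7% of all promoters, numbered 5 in the *Cebpb* window, a pair of them overlapping, at a GC content of 81.6%. The *Cebpa* window had a GC content of 66.4%, no GC box and 1 TATA box, which 12.4% of promoters hold. The AGGTCA half-site that nuclear receptors bind (TGACCT on the other strand), held by 14% of promoters, occurred 2 times in 1 of the *Rxra* windows and 1 time in each of the 2 upstream *Pparg* windows, counted over the full 250 bases. These matches describe the letters only and say nothing of binding in these mice.

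*Pparg* (ENSMUSG00000000440.13; GRCm38 chr6:115360951-115490399, plus strand) encodes PPARγ, the receptor without which adipocytes do not form. It was measured at 57.4, 49.6, 27.1 and 29.0 CPM in CTR mice 1 to 4 and at 19.8, 31.6, 23.8 and 24.9 CPM in CAC mice 1 to 4, from 37 to 188 counts per library. Of the CAC mice, 3 lay below every CTR mouse, and CAC 2 lay above CTR 3 and CTR 4. The group means were 40.8 ± 15 and 25.0 ± 4.90 CPM (SD, n = 4 each). The log2 fold change was -0.71 (SE 0.25, 95% interval -1.26 to -0.15), a ratio of 0.613 with an interval of 0.417 to 0.900, with an unadjusted p of 0.0173 and an adjusted p of 0.261 in edgeR. The coefficient of variation in CTR was 36.8%, where counting error alone would give 9.25%. Much of the CTR spread lay between CTR 1 and 2 on one side and CTR 3 and 4 on the other. Without the low-count filter the adjusted p of *Pparg* was 0.000372 in edgeR, at a log2 fold change of -0.73. By qPCR, a separate measurement, the paper reports *Pparg* mRNA as significantly lower in CAC BAT.

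*Ppara* (ENSMUSG00000022383.14; chr15:85734983-85802819, plus strand) encodes PPARα, the receptor that drives fatty acid oxidation genes. Its CTR values were 142, 84.9, 98.2 and 184 CPM, and its CAC values were 174, 187, 187 and 176 CPM. CTR 4 alone among the controls lay within the CAC range, and 2 of the 4 CAC mice exceeded it. The group means were 127 ± 45.2 and 181 ± 6.84 CPM (SD, n = 4 each). The log2 fold change was 0.50 (SE 0.22, 95% interval 0.00 to 1.00, a ratio of 1.42), with an adjusted p of 0.381 in edgeR. The 4 CAC mice varied by 3.78%, close to the 4.85% that counting error alone gives, and the CTR mice varied by 35.5%, beside 5.24% from counting. Leaving out CTR 4 gave a log2 fold change of 0.75 and an adjusted p of 0.00882 in edgeR, so that 1 library decided the call. Without the low-count filter the adjusted p was 0.0141 in edgeR at a log2 fold change of 0.47.

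*Ppard* (ENSMUSG00000002250.17; chr17:28232700-28301474, plus strand) encodes PPARδ, a receptor also linked to fatty acid use in muscle. Its values were 7.48, 5.54, 8.22 and 5.24 CPM in CTR and 6.96, 13.2, 9.58 and 8.98 CPM in CAC, from 13 to 33 counts per library. All but CAC 1 lay above every CTR mouse. Its log2 fold change was 0.58 (SE 0.25, 95% interval 0.06 to 1.10, a ratio of 1.49), with an adjusted p of 0.32 in edgeR. The part of skeletal muscle RNA, whose summed markers are given above, in these values was not tested.

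*Rxra* (ENSMUSG00000015846.16; chr2:27676440-27762957, plus strand) encodes RXRα, the receptor with which all PPARs pair on DNA. It was at 27.4, 27.4, 34.5 and 33.4 CPM in CTR and at 25.2, 27.9, 31.3 and 25.5 CPM in CAC, with the groups largely overlapping. CAC differed from CTR by a log2 fold change of -0.15 (SE 0.14, 95% interval -0.44 to 0.15), with an adjusted p of 0.718 in edgeR, so that a ratio outside 0.735 to 1.11 lay beyond the interval.

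**Figure D2:**
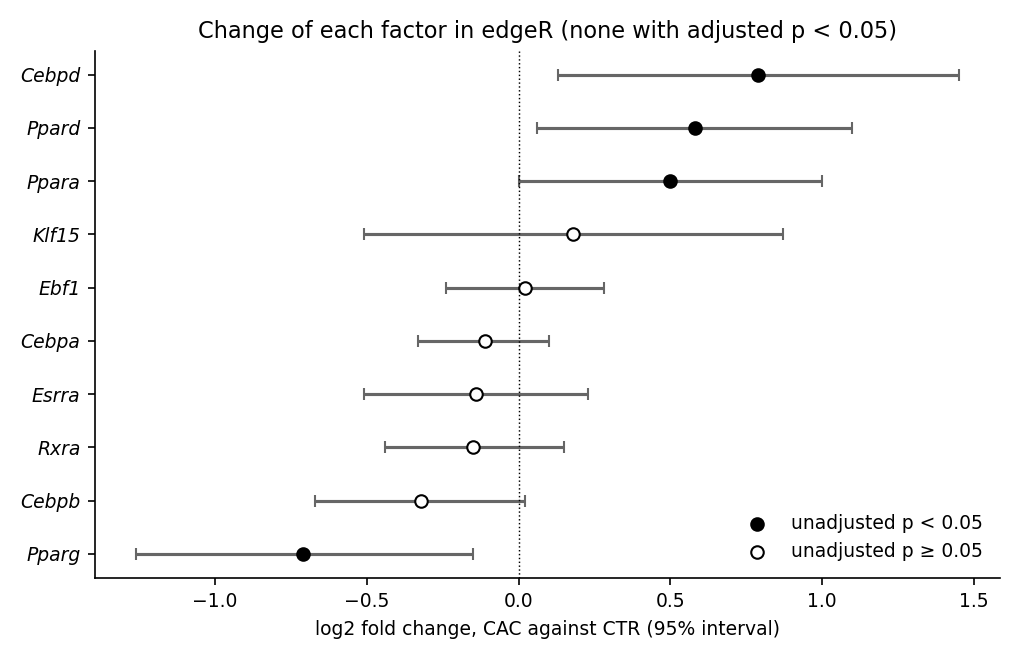
Log2 fold change of CAC against CTR for each factor in edgeR (4 mice per group); points are estimates, lines are 95% intervals and filled points have an unadjusted p below 0.05. The intervals of 6 factors hold 0, *Cebpd* (0.79) and *Pparg* (-0.71) mark the ends, and none has an adjusted p below 0.05.

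Of the C/EBP factors, *Cebpa* (ENSMUSG00000034957.11; chr7:35119293-35121928, plus strand), the factor that maintains mature adipocytes together with PPARγ, was at 227, 205, 184 and 212 CPM in CTR and at 181, 184, 222 and 179 CPM in CAC. CAC 3 lay among the highest CTR mice, and the other CAC mice lay at or close to the lowest. The means were 207 ± 18.1 and 192 ± 20.4 CPM (SD, n = 4 each), and the log2 fold change was -0.11 (SE 0.10, 95% interval -0.33 to 0.10) with an adjusted p of 0.707 in edgeR. With 338 to 971 counts per library, it had the smallest counting error of the 10 factors, 3.91% in CTR and 4.76% in CAC.

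*Cebpb* (ENSMUSG00000056501.4; chr2:167688915-167690418, plus strand), a single-exon gene for C/EBPβ, an early adipogenic and acute-phase factor, was at 29.2, 26.1, 23.8 and 26.2 CPM in CTR and at 16.1, 21.6, 18.6 and 27.3 CPM in CAC. CAC 4 lay within the CTR range and the other 3 lay below it. The log2 fold change was -0.32 (SE 0.16, 95% interval -0.67 to 0.02), with an unadjusted p of 0.062 and an adjusted p of 0.418 in edgeR. Without CAC 4 it was -0.49, with an unadjusted p of 0.00952 and an adjusted p of 0.245 in edgeR. The exon shares 312 bases with *Tmem189* on the other strand, which had 37.5 to 91 counts per library, and the strand setting of the counting is not given in the sources used here, so reads of the shared bases cannot be told apart.

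*Cebpd* (ENSMUSG00000071637.6; chr16:15887286-15891031, plus strand) encodes C/EBPδ, which like C/EBPβ acts early in adipogenesis and in the acute-phase response. It had 8, 16, 10.5 and 10.5 counts in CTR (2.85, 4.22, 4.11 and 2.18 CPM) and 8, 8.5, 22 and 20 counts in CAC (4.28, 4.21, 6.38 and 6.90 CPM). CAC 3 and 4 were above all other mice, and CAC 1 and 2 lay at the level of CTR 2 and 3. This gave a log2 fold change of 0.79 (SE 0.32, 95% interval 0.13 to 1.45, a ratio of 1.72), with an unadjusted p of 0.0219 and an adjusted p of 0.282 in edgeR. Counting error alone gives 30.7% variation in CTR and 29.1% in CAC, and the observed values were 29.7% and 25.7%, so the depth limits this gene. The gene shares 562 exon bases with *Spidr*, which had 0 to 5 counts.

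Because a ratio of counts within a library does not depend on scaling between libraries, 3 pairs of factors were also compared as log2 ratios, by exact two-sided permutation tests over the 70 assignments of 8 mice to 2 groups of 4, where the smallest possible p is 0.0286. *Cebpb* to *Cebpa* was at -2.95, -2.97, -2.94 and -3.01 in CTR, a spread of 0.03 (SD), and at -3.47, -3.08, -3.57 and -2.71 in CAC, a spread of 0.40 (SD). The counting error of *Cebpb* alone is 10.9% in CTR, so the CTR ratios lay closer together than counting allows on average, and the contrast in spread was not tested. CAC 1 to 3 lay below all CTR mice and CAC 4 above all of them. The means differed by -0.24, with an adjusted p of 0.314 in the exact permutation test, and by -0.41 without CAC 4 and -0.12 without CAC 3 (adjusted p 0.0857 and 0.6 in the same exact test). It was -0.15 without CAC 1. Because the CAC values lay on both sides, the groups were not apart in 1 direction.

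*Cebpd* to *Cebpa* was at -6.23, -5.56, -5.41 and -6.53 in CTR and at -5.32, -5.37, -5.09 and -4.66 in CAC. All 4 CAC mice lay above all 4 CTR mice, with a mean difference of 0.83, a ratio of 1.77. CAC 2 at -5.37 and CTR 3 at -5.41 nearly met. Their *Cebpd* counts, 8 and 10 after rounding, are too few to tell these 2 ratios apart, so the separation of the groups is within counting error. The p of 0.0286 was the smallest this exact permutation test can give, and its adjusted value over the 3 ratios was 0.0857. *Pparg* to *Ppara* was at -1.31, -0.77, -1.85 and -2.66 in CTR and at -3.12, -2.55, -2.97 and -2.82 in CAC, with 3 of 4 CAC mice below all CTR mice and CAC 2 above CTR 4. The mean difference was -1.22, a ratio of 0.43, with a p of 0.0571 and an adjusted p of 0.0857 in the exact permutation test. No ratio passed at 0.05 after adjustment. Without CTR 4 the adjusted p of both differences was below 0.05, at 0.63 for *Cebpd* to *Cebpa* and -1.55 for *Pparg* to *Ppara*, each with an adjusted p of 0.0429 in the exact permutation test. For *Cebpd* to *Cebpa* the unadjusted p of 0.0286 was the same with and without CTR 4, while the difference was smaller, and its adjusted value fell with the p of the other ratio. In the other 7 fits with 1 library left out neither passed, with adjusted p of 0.0857 to 0.129 for each in the exact permutation test.

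**Figure D3:**
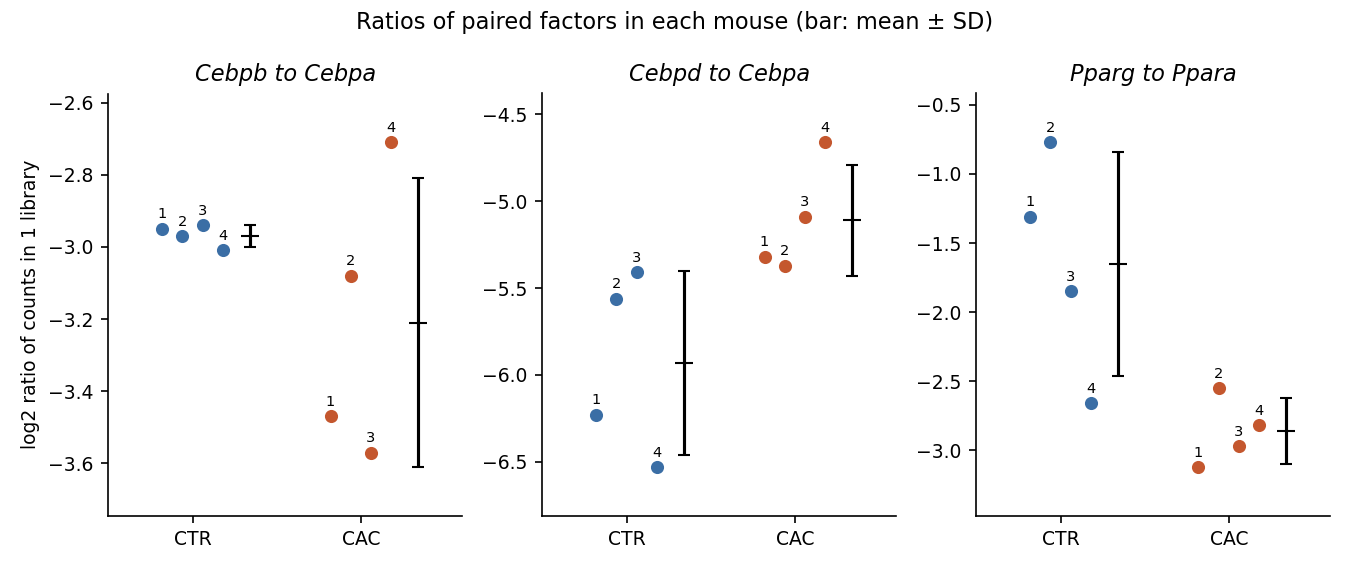
Log2 ratio of the counts of paired factors in each library, with 0.5 added to each count; points are mice with their replicate number, and the bar is the mean with 1 SD (n = 4 per group). The axes do not start at 0. *Cebpd* to *Cebpa* is higher in all 4 CAC mice than in any CTR mouse, but CAC 2 (-5.37) and CTR 3 (-5.41) differ by less than counting error.

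*Esrra* (ENSMUSG00000024955.16; chr19:6910977-6921813, minus strand), encoding ERRα, a regulator of mitochondrial genes, was at 20.3, 21.1, 18.9 and 15.1 CPM in CTR and at 12.8, 20, 16.2 and 18.6 CPM in CAC. CAC 1 was the lowest mouse, and the remaining CAC values lay inside the CTR range. The groups differed by a log2 fold change of -0.14 (SE 0.18, 95% interval -0.51 to 0.23, a ratio of 0.908), with an adjusted p of 0.805 in edgeR, and by -0.24 without CTR 4 and -0.04 without CAC 1. Its counts had fractions of a read in 7 libraries. It shares 73 exon bases with *Trmt112* on the other strand, which had 23.33 to 76 counts per library. Without the strand setting, reads of these shared bases cannot be told apart either.

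*Ebf1* (ENSMUSG00000057098.15; chr11:44617317-45008091, plus strand), a factor of adipocyte and progenitor identity, was at 63.1, 65.9, 49.3 and 70.7 CPM in CTR and at 69.6, 67.9, 57.5 and 59.7 CPM in CAC, all CAC mice within the CTR range. The log2 fold change was 0.02 (SE 0.13, 95% interval -0.24 to 0.28) with an adjusted p of 0.974 in edgeR, and its sign turned under upper quartile scaling (-0.01). Of the 10 factors it had the smallest difference between the groups.

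*Klf15* (ENSMUSG00000030087.12; chr6:90462576-90475238, plus strand) had 15, 12, 10 and 16 counts in CTR (5.34, 3.16, 4.11 and 3.49 CPM) and 5, 5, 20 and 16 counts in CAC (2.68, 2.63, 5.80 and 5.52 CPM). CAC 1 and 2 were below all CTR mice and CAC 3 and 4 above all of them. Counting error alone gives 28% variation in CTR and 35.8% in CAC, and the observed values were 23.9% and 41.9%. *Klf15* had a log2 fold change of 0.18 (SE 0.33, 95% interval -0.51 to 0.87), with an adjusted p of 0.879 in edgeR. Its sign turned without CAC 3 (-0.04) and in limma-trend on the normalized signal (-0.02).

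**Figure D4:**
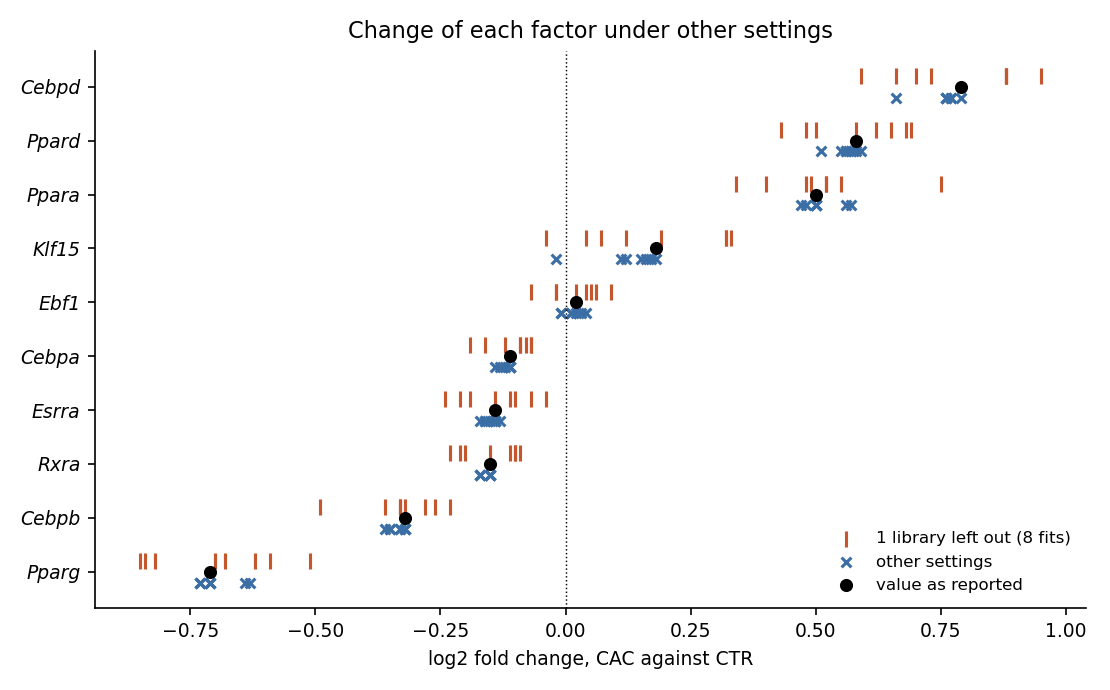
Log2 fold change of each factor as reported (black point), with 1 of the 8 libraries left out (orange bars) and under the other settings (blue crosses). *Ebf1* and *Klf15* cross 0, and the 8 other factors keep their direction in every fit shown.

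Partners, coregulators and target genes were taken from lists written with earlier results of these data known, and are described by their counts and medians. Of 16 tested relatives of the factors (RXR, C/EBP, ERR, EBF and KLF families, LXRs and *Nr2f2*), 1 was called, higher in CAC beside 0.739% of all genes called higher, and the median log2 fold change was 0.10. *Klf4*, a factor that acts at the start of adipogenesis, rose from 54.8 ± 7.83 to 80.8 ± 12.6 CPM (log2 fold change 0.56, adjusted p 0.0444 in edgeR). *Klf3* (0.33) and *Klf2* (0.66) had adjusted p of 0.243 and 0.265 in edgeR. Of 24 coregulators, 1 was called, also higher, beside that share. *Ppargc1a*, which encodes PGC-1α, was at 43.5, 44.3, 51.8 and 65.7 CPM in CTR and 105, 65.3, 90.2 and 81.5 CPM in CAC, and rose by 0.73 on the log2 scale (adjusted p 0.0201 in edgeR). CAC 2 at 65.3 CPM lay just below CTR 4, and the other CAC mice lay above all CTR mice. *Ncoa4* (-0.51) and *Zfp516* (0.65) had adjusted p of 0.215 and 0.216 in edgeR. The part of other cell types, whose markers are given above, in the values of the relatives and coregulators was not tested.

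Of 26 other adipocyte transcription factors tested, none was called in edgeR, beside 0.932% of all genes, and 6 had an unadjusted p below 0.05, beside 12.9%. Their median log2 fold change was 0.01. The smallest p belonged to *Id2* (-0.66), *Foxo1* (0.43) and *Tcf7l2* (0.40), with adjusted p from 0.111 to 0.263 in edgeR.

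The PPAR targets had no gene called, which is near the 0.932% called over all genes. Of 27 PPARγ targets tested, 5 had an unadjusted p below 0.05 in edgeR, beside 12.9% of all genes, and the median log2 fold change was 0.03. Among these 5 is a gene that also belongs to the macrophage markers summed above. *Gpihbp1*, which carries lipoprotein lipase to the capillary surface, had 63.7 ± 5.92 CPM in the CTR and 87.2 ± 5.51 CPM in the CAC mice (0.45, adjusted p 0.0566 in edgeR). *Plin1*, a lipid droplet coat gene, was at 658 ± 15.2 and 544 ± 59.2 CPM (-0.27, adjusted p 0.192 in edgeR), and *Slc27a1*, a fatty acid transporter, had 0.40. Of 29 PPARα and PPARδ targets, 4 had an unadjusted p below 0.05 in edgeR, beside the same 12.9%, and the median was -0.02. *Ucp2*, an uncoupling protein homologue, was at 8.57 ± 1.86 and 15.3 ± 3.93 CPM (0.81, adjusted p 0.0956 in edgeR), and *Acadl* and *Ech1*, enzymes of fatty acid oxidation, had log2 fold changes of -0.22 and -0.21. What other cell types, whose markers are given above, add to the values of both PPAR lists was not tested.

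Of 28 ERRα targets, mostly genes of the citric acid cycle and the respiratory chain, 3 were called, all lower in CAC, beside 0.192% of all genes called lower. The median log2 fold change was -0.16, 24 of the 28 were negative and 11 had an unadjusted p below 0.05, all of them lower, beside 5.93% of all genes. *Fh1*, fumarate hydratase, fell by 0.64 on the log2 scale, from 96.4 ± 6.31 to 61.3 ± 12.6 CPM (adjusted p 0.0176 in edgeR). *Ndufa4*, of the respiratory chain, fell by 0.53 and *Cs*, citrate synthase, fell by 0.40, with adjusted p of 0.0444 and 0.0436 in edgeR. The summed level of the list overlapped between the groups, at 20400 to 21500 CPM in CTR and 17900 to 21600 CPM in CAC. The part of the neutrophil, macrophage, muscle and erythrocyte signals given above in these values was not tested.

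Of 20 acute-phase genes with C/EBP sites 9 passed the filter, 2 were called, both higher, beside 0.739% of all genes, and all 9 had a positive log2 fold change with a median of 0.49. Among the 9, a gene at 2.88 to 4.15 CPM in CTR and 5.27 to 6.42 CPM in CAC passed the filter through CAC. Some genes of the list that were not tested lay near 0 except in CAC 3, where they reached up to 11.3 CPM. *Lrg1*, a secreted acute-phase glycoprotein, rose from 295 ± 35.4 to 427 ± 31.7 CPM (0.53, adjusted p 0.0105 in edgeR). *C3*, the central complement protein, rose from 374 ± 12.6 to 524 ± 69.1 CPM (0.49, adjusted p 0.0166 in edgeR). *Hp*, which encodes haptoglobin, had 0.44 and an adjusted p of 0.0845. Neutrophils and macrophages also express genes of this kind, and their markers were higher in CAC, as given above. Their part in these values was not tested.

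Glucocorticoid targets had 3 of 16 tested genes called, 2 higher and 1 lower, beside 0.739% and 0.192% of all genes. *Per1*, a clock gene, rose from 5.48 ± 1.32 to 16.5 ± 0.814 CPM (1.53, adjusted p 0.000301 in edgeR) and *Mt1*, a metallothionein, rose from 809 ± 90.4 to 1160 ± 18.8 CPM (0.52, adjusted p 0.00607 in edgeR). *Cdkn1c*, a cell cycle inhibitor, fell by 1.26 on the log2 scale, from 36.7 ± 5.37 to 14.8 ± 3.35 CPM (adjusted p 0.00024 in edgeR). The list's median was 0.33. Of 13 KLF15 targets none was called in edgeR, beside 0.932% of all genes, 1 had an unadjusted p below 0.05, beside 12.9%, and the median was -0.10. The amino acid enzyme genes *Gpt* (-0.29) and *Prodh* (0.41) had adjusted p of 0.334 and 0.485 in edgeR. Of 10 STAT3 targets 1 was called, higher, beside 0.739% of all genes, and the median was 0.35. *Il4ra*, the interleukin 4 receptor, rose from 21.4 ± 4.86 to 61.1 ± 11.9 CPM (1.48, adjusted p 3.2e-05 in edgeR), while *Stat3* (0.38) and *Pim1* (-0.41) had an adjusted p of 0.0882 in edgeR. The part of the higher neutrophil and macrophage markers of CAC in the glucocorticoid and STAT3 lists was not tested either.

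**Figure D5:**
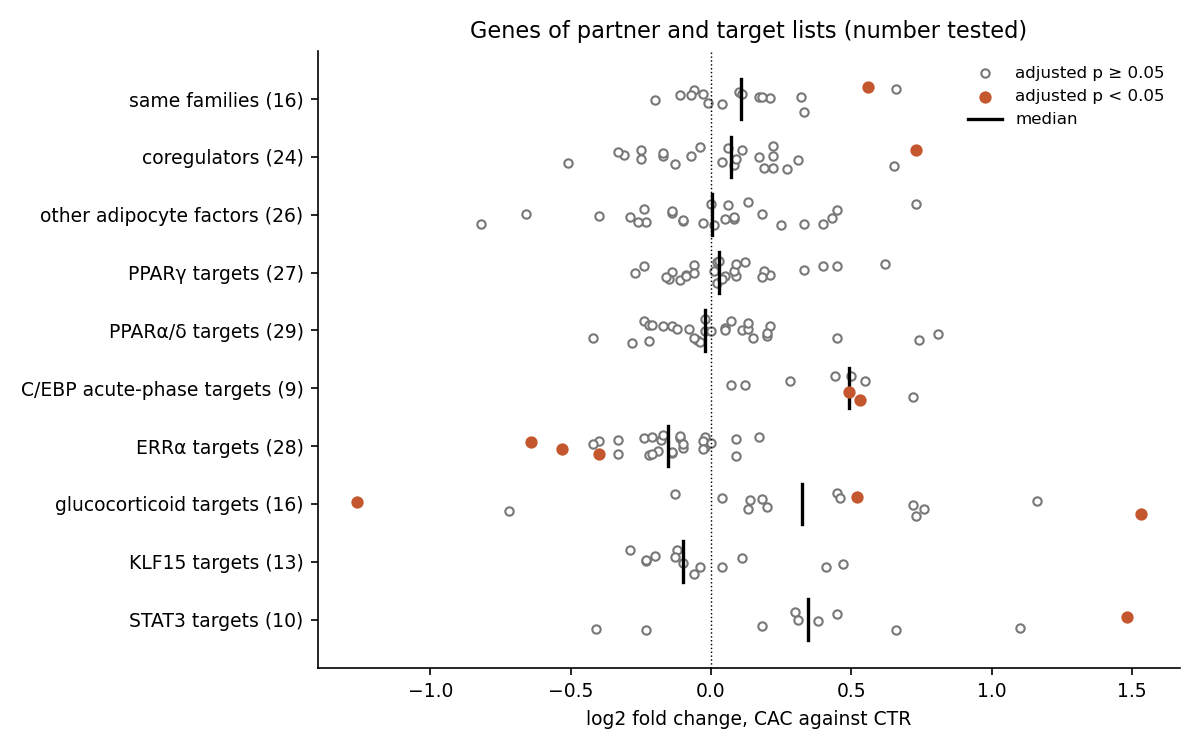
Log2 fold change of CAC against CTR for the tested genes of 10 lists of partners and targets, with the number tested in parentheses; filled points have an adjusted p below 0.05 in edgeR and the black bar is the list's median. Medians run from -0.16 (ERRα targets) to 0.49 (acute-phase genes with C/EBP sites), and the PPAR target lists lie at 0.03 and -0.02.

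The genes whose profile over the 8 mice was most like that of *Pparg* and *Cebpd*, the factors with the smallest p, were sought among 8588 genes by the root mean square difference of centred log2 CPM. For *Pparg*, whose own spread was 0.49, they were *Tomm40*, *Pts* and *Mpdz*, each at 0.19. *Pts* averaged 8.61 and 4.15 CPM in the 2 groups (log2 fold change -1.07, adjusted p 0.0746 in edgeR). For *Cebpd*, with a spread of 0.43, they were *Synpo2* at 0.17 and *Gm10039* and *Cpe* at 0.18. Likeness over 8 libraries is a description only.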

How the data were processed

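Single-end RNA-seq libraries of BAT (4 CTR, 4 CAC) were grouped by their labels. Per the labels and the study's methods, the authors used FastQC 0.11.9, HISAT2 2.2.1 on mm10 and featureCounts. The deposited table holds expected counts, that is gene-level counts that include fractions of reads (25.1% to 28.4% of non-zero values per library), not normalized. The deposited signal of 24792 genes, normalized by the authors with DESeq2, served only for alternatives. Expected counts were rounded and tested with edgeR 4.0.16 in R 4.3.3 (filterByExpr, TMM, robust quasi-likelihood test, no covariate, Benjamini-Hochberg adjustment, threshold 0.05) and the script was tested on simulated data. CPM use TMM-scaled library sizes. A count of 0 allows up to 3 counts, which are 0.621 to 1.65 CPM per library, for counting error only. Ratios were compared by exact permutation. Coordinates come from GENCODE M21, matched by Ensembl ID without version.

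The 10 factors and the gene lists were chosen with earlier results of these data known. The genes named are all 10 factors, in each list of partners and targets the 3 with the smallest p, *Ucp1* and, for 2 factors, the 3 genes most like them with a mean of at least 5 CPM. *Adipoq* was added as a tissue check after its values were seen, and *S100a8* and *S100a9* as the largest parts of the neutrophil sum. Alternatives were DESeq2 1.42.0, upper quartile or library size scaling, no filter, at least 10 counts in every library, a block on replicate number, limma-trend (limma 3.58.1) on log2(signal + 1), an adjusted p under 0.1, each library left out, and, chosen after seeing the data, edgeR without robust weighting.  Batches are not given in the labels. A gene that the rule names in 1 list is not reported here.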

Additional observations from a re-analysis of the deposited data

Results flagged for a closer look

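In 48 groups of 4 mice (factor levels, marker list sums and ratios of factors), 3 had a mouse far from the others by Dixon's test, where chance at 1 in 20 gives 2.4. *Cebpa* was at 222 CPM in CAC 3 and at 179 to 184 CPM in the other CAC mice. The summed macrophage and monocyte markers were at 216 CPM in CTR 3 and at 238 to 242 CPM in the other CTR mice. The summed Schwann cell and nerve markers were at 437 CPM in CAC 1 and at 289 to 301 CPM in the other CAC mice.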

How the results depend on the processing

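The depth limits *Cebpd*, *Klf15* and *Ppard*, and 8 factors kept their direction in every alternative run. With no filter on low counts edgeR called 351 genes and 2 factors, *Pparg* (-0.73, adjusted p 0.000372) and *Ppara* (0.47, adjusted p 0.0141). There the prior degrees of freedom of the spread were 4364 for *Pparg* and 163 for *Ppara*, beside 4.86 and 2.94 with the filter. The number of genes called, 92 as reported, was 140 with the replicate block and 183 at an adjusted p under 0.1, and 42 (without CTR 1) to 135 (without CTR 3) with 1 library left out. Without CAC 3 it was 60. The replicate block changed no factor's call. Deviations of same-numbered mice had correlations of -0.0231 to 0.0355, and CAC 2 and CAC 3 correlated best with another number, so the numbers were not taken to pair the mice. edgeR without robust weighting called 86 genes and 0 factors. Leaving out 1 library gave 0 to 1 factors called (1 without CTR 4), and log2 fold changes of -0.85 to -0.51 for *Pparg*, 0.34 to 0.75 for *Ppara*, 0.43 to 0.69 for *Ppard*, -0.23 to -0.09 for *Rxra*, -0.19 to -0.07 for *Cebpa*, -0.49 to -0.23 for *Cebpb*, 0.59 to 0.95 for *Cebpd*, -0.24 to -0.04 for *Esrra*, -0.07 to 0.09 for *Ebf1* and -0.04 to 0.33 for *Klf15*. Those of *Ebf1* were also -0.01 with upper quartile scaling and with no filter, and that of *Klf15* was -0.02 in limma-trend. The number of factors with an unadjusted p below 0.05, 4 as reported, was 2 with DESeq2 and with at least 10 counts in every library, which tests only 8 factors, and 0 (without CAC 3) to 3 with 1 library left out. This number was 5 with no filter on low counts. With 1 library left out the ratio differences ranged from 0.63 to 1.0 for *Cebpd* to *Cebpa*, from -1.55 to -0.92 for *Pparg* to *Ppara* and from -0.41 to -0.12 for *Cebpb* to *Cebpa*. With the replicate block the adjusted p was 0.188, 0.188 and 0.375 in exact sign-flip tests, whose smallest p is 0.125. The cause of changes with single libraries was not tested.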
